A study of Homo sapiens with 6 samples.

Results

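The 10 genes described here are used to tell a colon epithelial cell from other cells: *CDX1*, *CDX2*, *VIL1*, *EPCAM*, *CDH1*, *KRT8*, *KRT18*, *KRT20*, *VIM* and *ZEB1*. They were taken by symbol, with no threshold on their values, from the 19225 symbols of the expression table. The choice was made with earlier results of these data known. All 10 were in the table, and 8 of them had a mean of at least 0.5 FPKM over the 6 libraries, the level from which genes were tested (12884 genes in all). FPKM is the number of reads on a gene divided by its length and by the reads of the library, so that levels of different genes can be compared per length. The cells were SW480, an established human colon cancer line with mutant p53, in 3 control libraries and 3 libraries of cells given plasmids that encode MDM4, and the labels number the replicates 1 to 3 in each group. The labels give plasmid transfection as the treatment and mutant p53 as the genotype of all 6 libraries, and what the control cells received is not named. MDM4 is a relative of MDM2 and a negative regulator of p53, and the study asked what its overexpression does in cells without normal p53. Nothing says that libraries of a group came from separate cultures, so p-values measure only the spread between these libraries. The groups are bulk RNA of a cell line, in which fewer cells of a kind and less RNA per cell cannot be told apart.

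The colon epithelium is a single layer of polarised cells that keep to their fate through the caudal-type homeobox factors CDX1 and CDX2. These factors drive genes of the absorptive surface, such as villin and cytokeratin 20, while EpCAM, E-cadherin and the keratin pair 8 and 18 belong to simple epithelia in general. Vimentin and the repressor ZEB1, which binds E-box sequences in the promoter of the E-cadherin gene, mark the mesenchymal end of the epithelial-mesenchymal transition, a loss of cell contacts that carcinoma cells can undergo in part.

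The number of reads recovered from the steps of the FPKM values ran from 32927318 to 44567888 per library, and the 10 most abundant genes took 3.999% to 4.53% of them. The level of *MDM4* in replicates 1 to 3 was 6.35, 7.09 and 5.13 FPKM for control and 188, 185 and 56.3 FPKM for MDM4, so that each library matched its label and MDM4 replicate 3 had the least of the 3. Replicate 3 of both groups stood apart from replicates 1 and 2 across genes, and its comparison with them is given for the 10 genes below. Its 2 libraries had 40091693 and 32927318 reads, the second highest and the lowest of the 6 totals, and the lowest share of reads in the 10 most abundant genes of their groups (4.13% and 3.999%). Neither the labels nor the methods name anything that set replicate 3 apart.

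The epithelial structure genes were abundant in SW480 cells, the colon-specific ones ranged from moderate to near 0, and the mesenchymal filament gene *VIM* was more abundant per length than *EPCAM*. Of 11 markers of colon epithelium, 6 had a control mean of at least 0.5 FPKM (*CDX2*, *VIL1*, *EPCAM*, *CDH1*, *KRT8* and *KRT18*). The other 5 were *CDX1* and *KRT20*, with the adhesion genes *CDH17* (0.0807 FPKM) and *GPA33* (0.121 FPKM) and the lectin gene *LGALS4* (0.112 FPKM). The general epithelial genes thus bore out an epithelial label, not a colon one. Of the colon or intestinal genes, *CDX2* and *VIL1* reached a control mean of 0.5 FPKM and the other 5 did not. Most markers of other cell types were under that level, but the leukocyte marker *CD68* was above the 3.45 FPKM of *VIL1*. Of 9 fibroblast markers, 1 reached a control mean of 0.5 FPKM (*COL1A1*, 2.55 FPKM), with *PDGFRB* next (0.130 FPKM), and *DCN*, *LUM* and *COL1A2* had at most 1 read in any library. Among 10 leukocyte markers 3 reached it, led by the lysosomal gene *CD68* (4.54 FPKM) and *LYZ* (0.862 FPKM), while *PTPRC* had at most 1 read and *CD3D* and *MS4A1* had 0. None of 6 endothelial markers reached it, the highest being *VWF* (0.477 FPKM) and *CLDN5* (0.0510 FPKM). Their summed levels overlapped between the groups, at 1.86 to 4.07 FPKM in control and 1.99 to 4.04 FPKM in MDM4 libraries for fibroblasts, 6.35 to 7.42 and 6.22 to 7.28 FPKM for leukocytes, and 0.433 to 0.728 and 0.388 to 0.792 FPKM for endothelium.

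*CDX2*, the homeobox factor that maintains intestinal identity, had levels of 12.3, 12.6 and 14.2 FPKM in the control cells, in the order of their replicate numbers. Its mean of 13.1 ± 1.02 FPKM (SD, n = 3) ranked 5816 of the 19225 symbols. *CDX1*, its paralog, had 0, 2 and 5 reads in control replicates 1 to 3 and 0 in each MDM4 library. In a library, 3 reads of *CDX1* were worth 0.0379 to 0.0512 FPKM, so that only control replicate 3 (0.0701 FPKM) lay above that limit of detection and no fold change is given. The 2 factors of the same family thus stood far apart in level.

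*VIL1*, which encodes the actin-bundling protein of microvilli, was at 2.96, 3.30 and 4.08 FPKM in control cells, a mean of 3.45 ± 0.575 FPKM (SD, n = 3). *KRT20*, the keratin of mature surface cells, was at 0.446, 0.233 and 0.427 FPKM in control and 0.198, 0.591 and 0.402 FPKM in MDM4 libraries. These levels rest on 13 to 37 reads per library and were below the mean needed for a test. Of these 2 genes of the absorptive surface, *VIL1* was at rank 9981 and *KRT20*, the lower, at rank 13194.

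The promoter of *KRT20* is shown because it belongs to the surface keratin that was scarce here while *CDX2* was present. RefSeq promoters (GRCh38.p14) were at hand for 5 of the 10 genes (*CDX2*, *KRT8*, *KRT20*, *VIM* and *ZEB1*) and were searched, over 250 bases before and 50 after the start, for a CDX-type motif (TTTATG, or CATAAA on the other strand) and for the E-box read by ZEB1 and the SNAI factors (CACCTG or CAGGTG). The first was found in *KRT20* alone, at position -29 from the start, where TATA-type elements of promoters also commonly lie, and the E-box in *KRT20* at position 33 and in *ZEB1* itself at position -57. The promoters of *CDX2* and *KRT8* lay inside the GENCODE 29 spans of these genes, so other starts of them were not searched. Of 35116 RefSeq promoters of this length, 10.6% hold the CDX-type letters and 20.6% the E-box, and the 2 motifs share no bases here. The 250 bases upstream of both genes are given 5′ to 3′ on the strand of the gene, for *KRT20* chr17:40885243-40885492 on the minus strand and for *ZEB1* chr10:31318167-31318416 on the plus strand, with the CDX-type match of *KRT20* and the E-box of *ZEB1* in capitals.
KRT20: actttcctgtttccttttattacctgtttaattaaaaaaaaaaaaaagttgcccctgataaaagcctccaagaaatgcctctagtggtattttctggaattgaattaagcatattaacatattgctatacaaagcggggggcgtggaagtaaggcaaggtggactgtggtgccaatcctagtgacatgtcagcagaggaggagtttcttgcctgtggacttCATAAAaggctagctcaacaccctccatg
ZEB1: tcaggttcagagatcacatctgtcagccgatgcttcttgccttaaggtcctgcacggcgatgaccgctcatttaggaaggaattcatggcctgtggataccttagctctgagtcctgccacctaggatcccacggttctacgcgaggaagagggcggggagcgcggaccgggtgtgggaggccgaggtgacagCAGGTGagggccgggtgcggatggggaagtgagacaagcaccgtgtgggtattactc
A match is a description of letters, and no binding was measured in these cells.

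*KRT8* and *KRT18*, the type II and type I partners that form the filaments of simple epithelia, were among the most abundant transcripts of the cells, at ranks 7 and 8. In control cells *KRT8* was at 1876, 1767 and 1660 FPKM, with a mean of 1768 ± 108 FPKM (SD, n = 3). *KRT18* was at 1760, 1666 and 1590 FPKM, with a mean of 1672 ± 85.1 FPKM (SD, n = 3). Their ranges overlapped, yet within a library *KRT8* was above *KRT18* in 6 of 6 libraries. The pair lies side by side on chromosome 12, on opposite strands, with *KRT8* from 52897187 to 52949954 and *KRT18* from 52948871 to 52952901 (GENCODE 29, GRCh38), and 525 bases are exon in both genes. GENCODE also names 50 pseudogenes of *KRT8* and 68 of *KRT18*, of which 0 were in the table, and how reads shared with them were counted is not given in the sources used here, so that both levels are uncertain to that extent.

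*EPCAM*, a surface adhesion molecule of epithelia, was at 164, 161 and 167 FPKM in control libraries and was the least variable of the 10 genes, with a mean of 164 ± 3.47 FPKM (SD, n = 3) and a coefficient of variation of 2.12%. *CDH1*, the gene of E-cadherin at adherens junctions, was at 19.6, 20.04 and 21.7 FPKM, a mean of 20.5 ± 1.12 FPKM (SD, n = 3). *EPCAM* was thus 8.01 times *CDH1* per length.

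*VIM*, the intermediate filament gene of mesenchymal cells, was at 202, 174 and 186 FPKM in control libraries, a mean of 188 ± 14.0 FPKM (SD, n = 3) and rank 268. *ZEB1*, the repressor of *CDH1* and other epithelial genes, was at 1.37, 1.52 and 2.04 FPKM, a mean of 1.64 ± 0.350 FPKM (SD, n = 3) from 335 to 507 reads. A mesenchymal filament gene was therefore expressed beside *EPCAM* and the keratins, while the repressor was near the low end of the tested genes.

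By control mean, the order of levels was *KRT8*, *KRT18*, *VIM*, *EPCAM*, *CDH1*, *CDX2*, *VIL1*, *ZEB1*, *KRT20* and *CDX1*, and each neighbouring pair stood in that order in 6 of 6 libraries. Only *KRT8* and *KRT18* overlapped in their control ranges, and over the 6 libraries *VIL1* and *ZEB1* overlapped too, at 1.88 to 4.08 and 1.23 to 2.18 FPKM. *VIM* was 1.14 times *EPCAM*, and the largest steps between tested neighbours were from *KRT18* to *VIM* (8.91 times) and from *EPCAM* to *CDH1* (8.01 times). The plot of FPKM by gene and library shows how little of the spread of 10 genes over several powers of 10 lay between libraries.

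**Figure D1:**
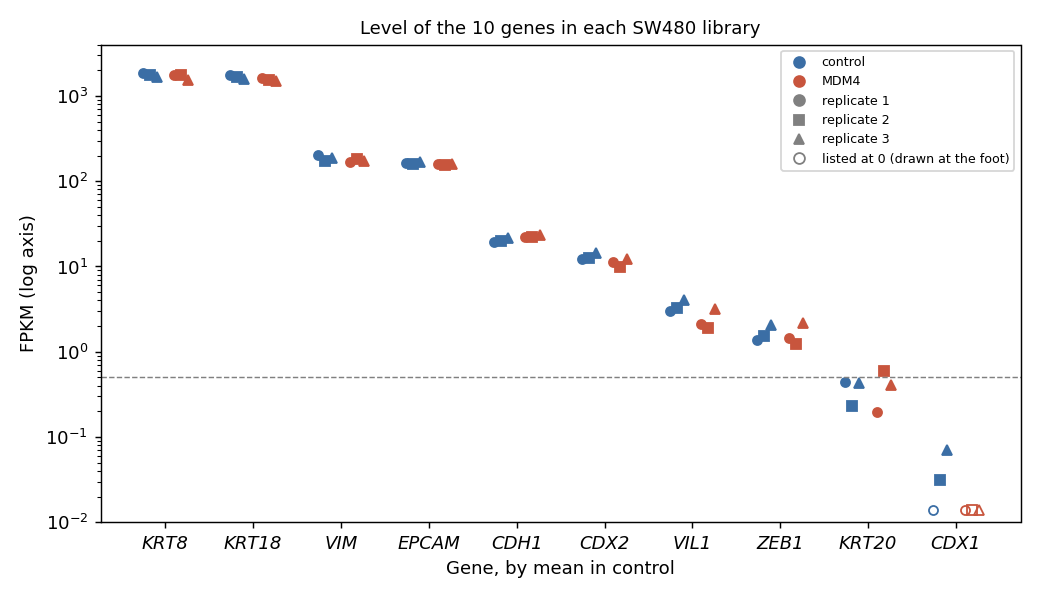
FPKM on a log axis of the 10 genes in each library, with control in blue, MDM4 in red and a symbol for each replicate. Open symbols at the foot are libraries listed at 0, and the dashed line is the mean of 0.5 FPKM needed for a test. *KRT8* and *KRT18* lie between 1482 and 1876 FPKM, while *KRT20* lies between 0.198 and 0.591 FPKM.

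None of the 8 tested genes was called between MDM4 and control libraries. On the log2(FPKM + 0.1) scale *VIL1* had the largest difference (-0.54) and *CDX2* the next (-0.22), while *CDH1* was the single gene with a higher estimate in MDM4 libraries (0.14). limma, with Benjamini-Hochberg adjustment over all tested genes, gave an adjusted p of 0.9999 for each of the 8. It called 0 of 12884 genes (0.00%), with 222 at an unadjusted p under 0.05, and voom on the recovered reads called 0 as well, with 233. *MDM4* itself was among the tested genes, and neither fit called it. Its mean in MDM4 libraries was 23.15 times that of control, without overlap. The smallest adjusted p of any gene in limma was 0.1606. A gene that is not called here is therefore not shown to be unchanged. Leaving out control replicate 3 or MDM4 replicate 3 gave 21 and 1 called genes, and the replicate number as a block gave 2 (0.0155%), with 0 of the 8 among them in each case.

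*VIL1* was at 2.96, 3.30 and 4.08 FPKM in control and at 2.12, 1.88 and 3.14 FPKM in MDM4 replicates 1 to 3, from 322 to 450 and 179 to 284 reads. MDM4 was below control in each same-numbered pair (0.714, 0.571 and 0.768 times), but MDM4 replicate 3 lay above control replicate 1, so the groups overlapped. The difference of -0.54 had an SE of 0.23 and a 95% interval of -1.07 to -0.011. In the GENCODE annotation, *VIL1* overlaps *USP37* at the 3′ end, on the other strand, over 3045 exonic bases. The length of *VIL1* implied by its FPKM and reads was 2738 bases, shorter than that overlap. The *VIL1* that was counted thus did not hold the whole overlap, and how much of it was counted is not known. The methods describe no step that marks strand. *USP37* was at 5.87, 6.81 and 5.14 FPKM in control and 7.54, 6.54 and 6.60 FPKM in MDM4 libraries, a log2 difference of 0.22 with an adjusted p of 0.9999 in limma, and its part in the values of *VIL1* was not tested.

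*CDX2* was at 12.3, 12.6 and 14.2 FPKM in control and at 11.4, 9.99 and 12.2 FPKM in MDM4 libraries. The groups did not overlap, and MDM4 was at 0.922, 0.792 and 0.856 times control in the 3 pairs. The means were 13.1 ± 1.02 and 11.2 ± 1.10 FPKM (SD, n = 3 each), and the log2 difference of -0.22 had a 95% interval of -0.49 to 0.040. It was -0.15 without MDM4 replicate 2.

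*EPCAM* was at 164, 161 and 167 FPKM in control and 157, 156 and 160 FPKM in MDM4 libraries, again without overlap. Its small spread left a log2 difference of -0.058 with a 95% interval of -0.18 to 0.062. *CDH1* was at 19.6, 20.04 and 21.7 FPKM in control and 21.9, 22.1 and 23.6 FPKM in MDM4 libraries, so that MDM4 replicate 1 lay just above control replicate 3. In the 3 pairs MDM4 was at 1.12, 1.10 and 1.09 times control for *CDH1*, and the log2 difference of 0.14 had a 95% interval of -0.053 to 0.33.

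*KRT8* was at 1876, 1767 and 1660 FPKM in control and 1758, 1744 and 1550 FPKM in MDM4 libraries, a log2 difference of -0.071 (95% interval -0.23 to 0.089). *KRT18* was at 1760, 1666 and 1590 FPKM in control and 1618, 1558 and 1482 FPKM in MDM4 libraries, a log2 difference of -0.11 (95% interval -0.24 to 0.025). For both, MDM4 lay below control in each pair and the groups overlapped. With 1 library left out, *KRT8* ran from -0.12 (without control replicate 3) to -0.012 (without MDM4 replicate 3) and *KRT18* from -0.14 (without control replicate 3) to -0.069 (without control replicate 1).

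*VIM* was at 202, 174 and 186 FPKM in control and 169, 181 and 175 FPKM in MDM4 libraries, and the pairs went both ways (0.838, 1.04 and 0.938 times). Its log2 difference of -0.097 had a 95% interval of -0.26 to 0.063, and it was -0.042 without control replicate 1 and -0.15 without control replicate 2. *ZEB1* was at 1.37, 1.52 and 2.04 FPKM in control and 1.44, 1.23 and 2.18 FPKM in MDM4 libraries, with pairs in both directions and a log2 difference of -0.044 (95% interval -0.65 to 0.56). For the 2 mesenchymal genes there was thus no direction shared by the pairs, and for *ZEB1* the sign turned when single libraries were left out, from -0.27 without MDM4 replicate 3 to 0.12 without MDM4 replicate 2.

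The counts of directions were set beside those of all genes, and 8 genes of a chosen set allow no more than a description. Of the 8 genes, 1 (*CDH1*) had all MDM4 libraries above all control libraries, against 3.10% of tested genes, and 2 (*CDX2* and *EPCAM*) had them below, against 3.76%. In each of the 3 pairs 1 gene was above control, against 16.6% of tested genes, and 5 were below (*CDX2*, *VIL1*, *EPCAM*, *KRT8* and *KRT18*), against 18.6%. The median log2 difference was -0.084 over the 8 genes and -0.0091 over all tested genes. Under each scaling tried (to a common total, by the median ratio, by quantiles) the 8 genes kept the direction given here. The plot of differences with the pairs shows that, without the pairs in the fit, all intervals but that of *VIL1* hold 0. In the fit with the replicate block, 95% intervals of *VIL1* (-0.81 to -0.27), *CDX2* (-0.39 to -0.059), *KRT18* (-0.19 to -0.023) and *CDH1* (0.0054 to 0.27) left out 0, while the limma adjusted p over all genes were between 0.219 and 0.919 for the 8.

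**Figure D2:**
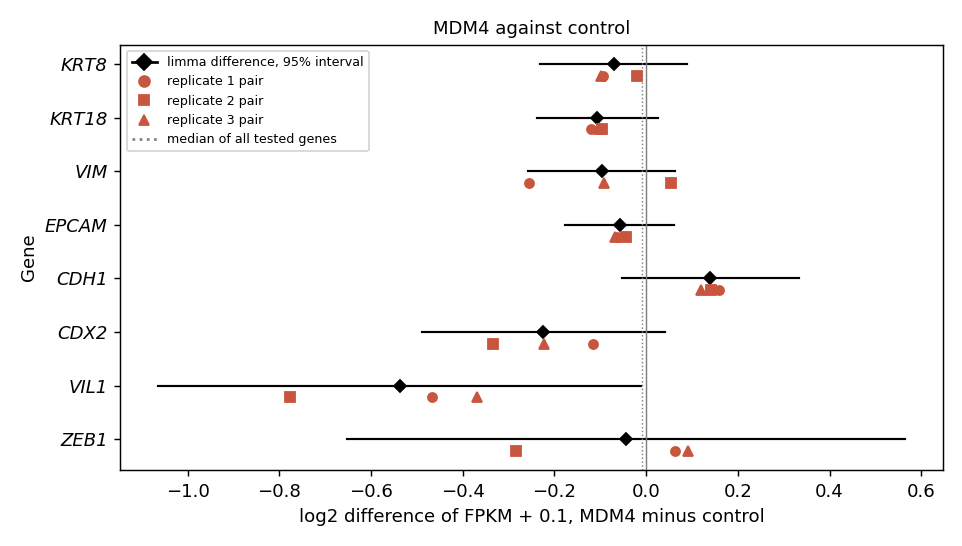
Log2 difference of FPKM + 0.1, MDM4 minus control, for the 8 tested genes, with black diamonds and lines for the limma estimate and its 95% interval and red symbols for the 3 same-numbered pairs. The dotted line is the median of all tested genes (-0.0091). The pairs of *CDH1* all lie right of 0, at 0.12 to 0.16, and those of *VIL1* all lie left, at -0.78 to -0.37.

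Ratios within a library do not depend on how libraries are scaled. The ratio of *VIM* to *CDH1*, a mesenchymal to an epithelial gene, was 10.3, 8.71 and 8.56 in control and 7.73, 8.19 and 7.39 in MDM4 libraries. The groups did not overlap, with means of 9.19 ± 0.971 and 7.77 ± 0.403 (SD, n = 3 each), a log2 difference of -0.24 and a two-sided exact permutation p of 0.1, the smallest that 3 against 3 libraries allow. Control replicate 1 was highest, and without it the difference was -0.15. With pairs as blocks the exact p was 0.25, the smallest that 3 pairs allow. The ratio of *KRT8* to *KRT18* was 1.07, 1.06 and 1.04 in control and 1.09, 1.12 and 1.05 in MDM4 libraries, with means of 1.06 ± 0.0114 and 1.08 ± 0.0365 (SD, n = 3 each), a log2 difference of 0.036 and a two-sided exact permutation p of 0.3. It was higher in MDM4 in each of the 3 pairs (exact p = 0.25 with pairs as blocks), and the log2 difference ran from 0.013 without MDM4 replicate 2 to 0.061 without MDM4 replicate 3. The ratio of the keratin partners thus stayed between 1.04 and 1.12, and the groups overlapped. For the 2 ratios together, the Benjamini-Hochberg adjusted exact permutation p were 0.2 and 0.3.

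**Figure D3:**
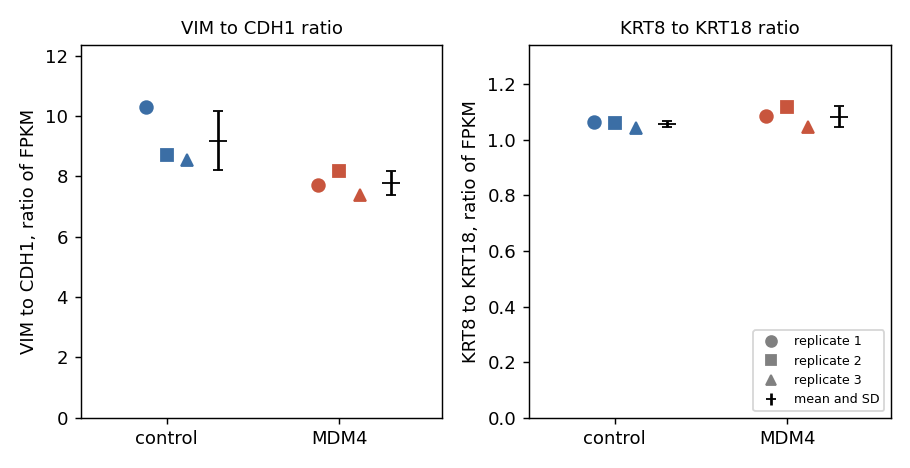
Ratio of FPKM within each library, *VIM* to *CDH1* on the left and *KRT8* to *KRT18* on the right, for control (blue) and MDM4 (red) libraries, with a symbol for each replicate and the mean with its SD in black. Both axes start at 0. The *VIM* to *CDH1* ratio of the 3 MDM4 libraries lies between 7.39 and 8.19, below the 8.56 to 10.3 of control.

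Between replicate 3 and replicates 1 and 2, with the group as a covariate, 3 of the 8 genes were called. *VIL1* and *ZEB1* were higher in replicate 3 and *KRT8* was lower. This is 2 of 8 in one direction and 1 of 8 in the other, where 29.6% of all tested genes were called higher and 14.6% lower, so that the 3 calls are close to the share in all genes. The comparison was chosen because replicate 3 stood apart in these same data, and its p-values describe these libraries.

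*ZEB1* was at 2.04 and 2.18 FPKM in replicate 3 of control and MDM4 cells and at 1.23 to 1.52 FPKM in the other 4 libraries, with no overlap. Its log2 difference was 0.57 (SE 0.15, limma adjusted p = 0.0109), with 0.47 in control and 0.67 in MDM4 cells. *VIL1* was at 4.08 and 3.14 FPKM in replicate 3 and at 1.88 to 3.30 FPKM in the others, which overlap, but within each group replicate 3 was the highest. Its log2 difference was 0.50 (SE 0.12, limma adjusted p = 0.00811), with 0.37 in control and 0.63 in MDM4 cells. A gene of the epithelial brush border and a mesenchymal repressor were thus higher in the same 2 libraries.

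*KRT8* was at 1660 and 1550 FPKM in replicate 3 and at 1744 to 1876 FPKM in the other 4 libraries, with no overlap. Its log2 difference was -0.15 (SE 0.043, limma adjusted p = 0.0136), with -0.13 in control and -0.18 in MDM4 cells. *KRT18* had a log2 difference of -0.10 (limma adjusted p = 0.0716), with -0.11 in control and -0.10 in MDM4 cells, and is not called. The partner keratins were each lowest in replicate 3 in both groups, but the median log2 difference of all tested genes was 0.092, so that the size of their shift depends on the scaling. Of the calls over all genes 67.0% were higher in replicate 3, against 48.6% with median ratio scaling and 51.2% after quantile normalization.

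*CDX2* had the same difference in both groups (0.19 in each), with a limma adjusted p of 0.0687 over the 6 libraries. *CDH1* was at 0.12 (adjusted p = 0.140), *EPCAM* at 0.037 (adjusted p = 0.525) and *VIM* at -0.0099 (adjusted p = 0.912) in limma on the log2 scale. *EPCAM* turned to -0.052 with median ratio scaling and *VIM* to 0.033 after quantile normalization, so no direction is given for either. *KRT20*, untested, had 31 and 24 reads in replicate 3 and 13 to 37 in the others, within their range.

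The 3 calls were lost in several settings. After quantile normalization none of the 3 was called by limma, with *VIL1* at 0.25 (adjusted p = 0.109), *ZEB1* at 0.28 (adjusted p = 0.146) and *KRT8* at -0.040 (adjusted p = 0.301). Without MDM4 replicate 3 none was called either, with *VIL1* at 0.37 (adjusted p = 0.1801), *ZEB1* at 0.47 (adjusted p = 0.177) and *KRT8* at -0.13 (adjusted p = 0.160) in limma. Without control replicate 3 only *VIL1* was called (0.63, limma adjusted p = 0.0367), while *ZEB1* was at 0.67 (adjusted p = 0.0581) and *KRT8* at -0.18 (adjusted p = 0.0652). Without control replicate 2, *CDX2* (0.20, limma adjusted p = 0.0487) and *KRT18* (-0.12, adjusted p = 0.0272) were called as well. *KRT18* was also called with values scaled to a common total (-0.098, limma adjusted p = 0.0476), with median ratio scaling (-0.19, adjusted p = 0.00398) and with voom (-0.10, adjusted p = 0.0468). *KRT8* was also lost without the filter on low values (adjusted p = 0.0827) and without the trend in limma (adjusted p = 0.0979), and *VIL1* without the group term (adjusted p = 0.0920).

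**Figure D4:**
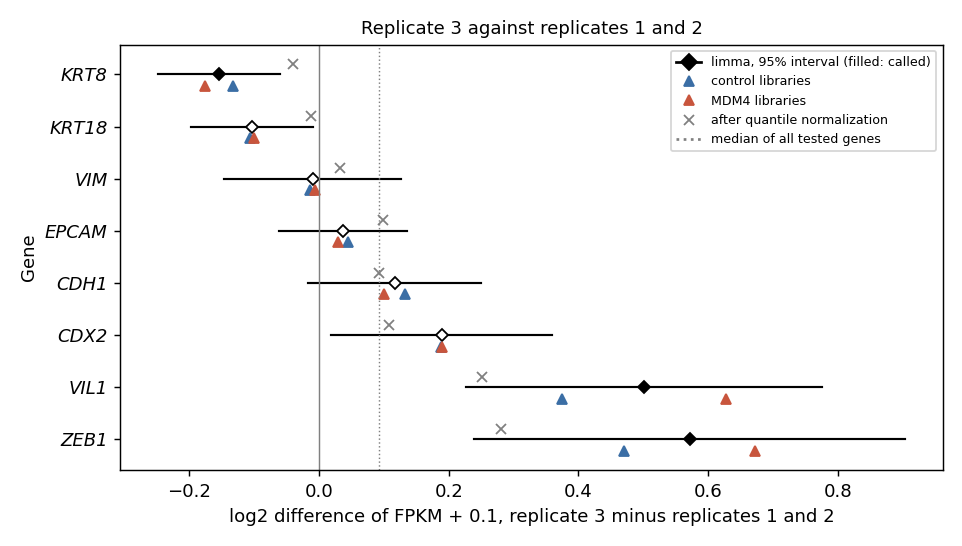
Log2 difference of FPKM + 0.1, replicate 3 minus replicates 1 and 2, for the 8 tested genes, with diamonds and lines for the limma estimate and its 95% interval (filled where called), triangles for the control (blue) and MDM4 (red) libraries alone, and crosses for the estimate after quantile normalization. The dotted line is the median of all tested genes (0.092). *VIL1* and *ZEB1* lie right of it at 0.50 and 0.57, and quantile normalization brings them to 0.25 and 0.28.

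Whether the MDM4 effect itself differed between replicate 3 and replicates 1 and 2 was tested as an interaction, which rests on 1 library per group for replicate 3. None of the 8 genes was called in limma (adjusted p = 0.9998 for each), against 0.194% of all tested genes. The interval was wide for *VIL1*, at 0.25 (95% interval -0.33 to 0.83), and *ZEB1*, at 0.20 (95% interval -0.51 to 0.92), and narrowest for *KRT8*, at -0.043 (95% interval -0.24 to 0.15).

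The wider gene programmes were read from the same fits, from lists of known members. None of their tested genes was called between MDM4 and control, so the counts below are of estimates on either side of 0. Of all 12884 tested genes, 6081 were higher and 6803 lower in MDM4 libraries, with a median log2 difference of -0.0091. Each list is to be read beside this split. For epithelial junctions 12 of 23 tested genes were higher and 11 lower in MDM4 libraries, with a median log2 difference of 0.0080, and for mesenchymal products it was 10 and 10 of 20, with a median of -0.0011. For keratins and their linkers 3 of 10 were higher and 7 lower (median -0.055), and for the brush border 8 of 11 were higher and 3 lower (median 0.098), opposite in sign to *VIL1*. Intestinal and epithelial transcription factors were split 11 to 10 (median 0.033), and of the factors of the epithelial-mesenchymal transition 1 of 5 was higher and 4 lower (median -0.092). Of 32 products of colonocytes and secretory cells only 5 were tested, since the rest were under a mean of 0.5 FPKM, 7 of them at 0 in control cells, so that *KRT20* and *CDX1* were low along with most products of the mature colon.

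Between replicate 3 and the others the lists held many calls, as did all genes, of which 29.6% were called higher and 14.6% lower, the shares against which each list is to be read. Epithelial junctions had 12 genes called higher and 3 lower of 23, among them the tight junction genes *CGN* (3.75, 3.72 and 7.01 FPKM in control and 3.67, 3.98 and 7.44 FPKM in MDM4 replicates 1 to 3) and *TJP3*, with log2 differences of 0.92 and 0.86, and the claudins *CLDN2* (0.61), *CLDN3* (0.60) and *CLDN4* (0.56). The 3 junction genes called lower were *TJP1* (-0.31), *MARVELD2* (-0.29) and *PKP3* (-0.22). *CDH1*, in the same structures, was not called. *CTNNA1*, the most abundant junction gene, which links E-cadherin to actin, was at 246 ± 18.4 FPKM in control cells (SD, n = 3) and had a log2 difference of 0.15.

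Among keratins and linkers 4 of 10 were called higher and 3 lower, beside 29.6% and 14.6% of all tested genes. *KRT5*, a keratin of basal layers of stratified epithelia, was at 721, 653 and 1007 FPKM in control and 540, 548 and 858 FPKM in MDM4 replicates 1 to 3, a log2 difference of 0.61 in replicate 3. *KRT19*, the simple keratin without a fixed partner, was at 1024 ± 91.7 FPKM in control cells (SD, n = 3) and was not called (0.10, limma adjusted p = 0.163). *KRT17* (-0.84), *KRT7* (-0.71) and the linker *PLEC* (-0.55) were the 3 called lower, at control means of 0.789, 2.04 and 119.6 FPKM. The linker *EPPK1* (0.96) was called higher. *KRT8* thus shared its direction with *KRT17* and *KRT7*, both scarce beside it, and not with *KRT5*.

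Of the brush border genes 5 of 11 were called higher and 1 lower, beside 29.6% and 14.6% of all tested genes. With *VIL1* went *USH1C* (0.73), a scaffold of microvillus tip links, *PLS1* (0.42), another actin bundler, and *SLC9A3R1* (0.37), a membrane scaffold, and the abundant *MYO1D* (0.28), a myosin. *EZR*, which ties actin to the membrane, went the other way, from 538 and 521 to 375 FPKM in control and from 612 and 583 to 398 FPKM in MDM4 cells (-0.54). Among intestinal and epithelial transcription factors 12 of 21 were called higher and 3 lower, again beside 29.6% and 14.6%, led by *OVOL2* (1.53), *GRHL1* (1.26), *FOXA2* (1.05) and *GATA6* (0.96), none above 6.79 FPKM in any library, while the abundant *SOX9* was at 0.29 and *KLF5* at 0.038, the latter not called.

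Factors and products of the mesenchymal side were called in both directions. *SNAI3* (1.72) and *SNAI1* (0.32), relatives of the E-box repressor SNAI2, were called higher of 5 tested factors, beside *ZEB1*, while the most abundant of them, *TCF3*, was not called (-0.052, limma adjusted p = 0.553). Of 20 mesenchymal products 7 were called higher and 5 lower, where 29.6% and 14.6% of all tested genes were, with *SPARC* (0.75) and *ITGA5* (0.57) on one side and *TAGLN* (-1.48) and *THBS1* (-1.33) on the other. The abundant *LGALS1* (0.13) and *S100A4* (0.21) were called higher by little. *TAGLN* was at 6.24, 6.65 and 2.63 FPKM in control and 7.60, 7.27 and 2.21 FPKM in MDM4 replicates 1 to 3. Each of these epithelial and mesenchymal lists held estimates on both sides of 0, and their medians, at 0.17 for junctions, 0.075 for keratins, 0.045 for the brush border, 0.47 for epithelial factors, 0.32 for mesenchymal factors and 0.030 for mesenchymal products, stood beside 0.092 for all tested genes. *COL1A1*, the single fibroblast marker above the filter, had a log2 difference of 0.92, from 2.34 and 1.604 to 3.71 FPKM in control cells, while the other fibroblast genes were near 0. Of the 5 tested products of colonocytes and secretory cells, 2 were called higher (*CEACAM1*, an adhesion gene, at 0.45 and *CA2*, a carbonic anhydrase, at 0.22), with a median of 0.22, and 0 of the 3 tested leukocyte markers were called in limma.

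**Figure D5:**
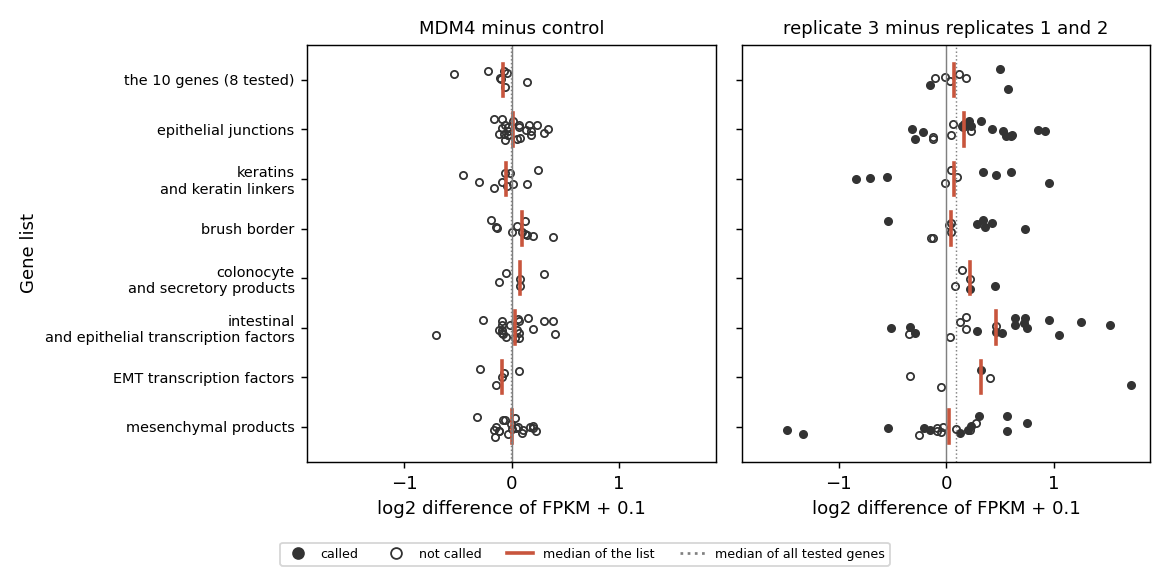
Log2 difference of FPKM + 0.1 for the tested genes of each list, MDM4 minus control on the left and replicate 3 minus replicates 1 and 2 on the right. Each circle is a gene, filled where called, red bars are the median of a list and dotted lines the median of all tested genes (-0.0091 and 0.092). No circle is filled on the left, and the right panel spreads from -1.48 (*TAGLN*) to 1.72 (*SNAI3*).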

How the data were processed

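Poly(A) RNA of SW480 cells, captured on oligo(dT) beads, was sequenced on an Illumina HiSeq2000. The authors deposited FPKM per gene symbol, and the aligner, annotation, genome build and counting are not given in the sources used here. The letters G and M of the table's columns were read as control and MDM4, the second of which the labels call "exercised". The reads behind the FPKM were recovered from their steps for 17189 of 17189 genes above 0 (100%), which in simulated data worked for 98.6% of 2832 genes, and served for depth, reads per gene and voom.

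Genes averaging 0.5 FPKM or more (12884) were fitted as log2(FPKM + 0.1) with limma 3.58.1 (R 4.3.3, eBayes with trend), and genes were called at a Benjamini-Hochberg adjusted p under 0.05. The fit was also run on simulated libraries with a capped spread and without the general shift of replicate 3. That run therefore does not show how the fit performs on these data. For ratios, exact permutation tests (two-sided, scipy 1.17.1) were run. Tables were made with numpy 2.4.6 and pandas 2.3.3 in Python 3.11.15, and plots with matplotlib 3.10.9. Positions and overlaps come from GENCODE 29 and promoters from RefSeq.

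The 10 genes and the lists were chosen with earlier results of these data known. From each list, the genes named are those called (at most the 4 with the largest differences) and the 2 most abundant in control cells, and other names stand beside a count. Same-numbered libraries of the 2 groups deviated together across genes (correlations of 0.458, 0.451 and 0.783), and the numbers were taken as pairs. Replicate 1 of one group correlated about as much with replicate 2 of the other (0.439 and 0.462). These values thus tell replicate 3 from the others, and do not show that replicates 1 and 2 were matched by number. Alternatives were 2 other pseudocounts, 2 filters, 3 scalings, no trend in eBayes, a fold threshold, the replicate block, a term for replicate 3, replicates 1 and 2 alone, voom, and each library left out.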

Additional observations from a re-analysis of the deposited data

How the results depend on the processing

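Between MDM4 and control, 0 of the 8 genes were called under all 20 alternatives. The fold threshold among these could only keep the count at 0, since it removes calls from the main fit and adds none. Over all genes the count of 0 became 2 with the replicate block, 2 with a term for replicate 3, 69 in replicates 1 and 2 alone and 29 with voom and the replicate block, and ran from 0 to 21 with 1 library left out. The replicate block changed no call of the 8 tested genes. *ZEB1* turned sign with single libraries left out, from -0.27 to 0.12. Between replicate 3 and replicates 1 and 2, the 5685 called genes became 327 with an absolute log2 difference over 1 and ran from 2424 to 6424 with 1 library left out. Of the 8 genes 3 were called, 0 after quantile normalization, 0 with an absolute log2 difference over 1, and 0 to 5 with 1 library left out (5 without control replicate 2, 0 without MDM4 replicate 3). The 0 under the fold threshold was fixed by the estimates, of which the largest was 0.57 (*ZEB1*). *EPCAM* was at -0.052 with median ratio scaling, and *VIM* at 0.033 after quantile normalization and from -0.055 to 0.036 with 1 library left out. The 25 genes with an interaction became 0 without the filter on low values and 5 without the trend. The causes were not tested. The reads limit *KRT20* (13 to 37) and *CDX1* (0 to 5), and the 3 libraries per group limit the other genes.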

Other observations

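For each of the 10 genes, the tested gene of at least 10 FPKM with the most alike profile was sought by Pearson's r of log2 values over the 6 libraries among about 6856 genes. With this many genes and 6 points a high r is to be found for any profile, and the points share the difference between replicate 3 and the others, so the values describe these libraries and carry no p. *CDX2* was most like *CREB3* (r = 0.993), a membrane-bound transcription factor, which was at 30.9, 31.8 and 34.1 FPKM in control and 29.1, 27.4 and 30.8 FPKM in MDM4 replicates 1 to 3. *CDH1* was most like *CMTM4* (r = 0.993), at 18.4, 19.5 and 21.9 FPKM in control and 22.5, 22.6 and 24.6 FPKM in MDM4 libraries. *KRT18* was most like another type I keratin, *KRT13* (r = 0.996), which was at 101.1, 89.8 and 78.0 FPKM in control and 84.1, 76.6 and 68.1 FPKM in MDM4 libraries. *ZEB1* went with *SNTB1* (r = 0.998) and had 623 genes with r over 0.9, while *KRT8* went with *TSC22D1* (r = 0.996) and had 427. *VIL1* went with *NUP88* (r = 0.992), *EPCAM* with *TRADD* (r = 0.991) and *VIM* with *ROMO1* (r = 0.996). The profiles of *KRT20* and *CDX1*, nearest to *TEX261* (r = 0.985) and *GLRX3* (r = 0.989), rest on few reads.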
